A study of Rattus norvegicus with 58 samples.

Results

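Synovial RNA of arthritic rats was compared with that of healthy rats after both had received the peptide RTD-1 for 3 days, so that drug and duration were the same on both sides. The members were the 13 libraries whose titles name these 2 groups, 8 arthritic and 5 healthy, of 58 libraries in all. The arthritic rats were female DA/OlaHsd animals, 6 to 8 weeks old, injected with 250 μL of pristane to give pristane-induced arthritis (PIA). Disease ran until each rear limb had scored at least 3, and the next day counted as time 0. RTD-1 was given in saline under the skin at 5 mg per kg, here for 3 days. Healthy rats, labelled so by disease state, received the same peptide for 3 days, and the protocols name no other strain, sex or age for them. All libraries came from total RNA of synovial tissue. The series also holds naive (n = 4) and untreated PIA rats (n = 4) and the same 2 RTD-1 groups after 5 days (8 arthritic, 5 healthy), used below to place the day 3 difference. Saline-treated arthritic rats gave 4 libraries after 1 day and 8 each after 3 and 5 days. They are used to set deeper libraries beside others, and beside named genes. The 10 groups of the series include no healthy rats given saline.

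The synovium lines the joint and, in health, is a thin layer of macrophages and lubricant-producing fibroblasts over vessels and fat. In arthritis it thickens, takes up neutrophils, monocytes and lymphocytes, and its fibroblasts release cytokines and enzymes that digest cartilage and bone. Pristane, a hydrocarbon oil, provokes such a disease in DA rats through autoreactive T cells. RTD-1, rhesus theta-defensin 1, is a cyclic peptide of macaque leukocytes known to restrain inflammatory cytokines. The table names genes by Ensembl identifier alone and 0 of these identifiers could be paired with a symbol here, so genes are described by identifier and in groups set by measured behaviour. The tissue label could not be checked against marker genes for the same reason. In bulk tissue, fewer cells of a type and less RNA per cell cannot be told apart.

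Depth differed between the groups. Arthritic libraries held between 464693 and 3753844 reads in genes and healthy libraries between 4437281 and 6183258, so the ranges did not overlap. The 5 healthy libraries belong to 13 deeper libraries of the series, those whose library factor was at least 10 megareads, with all 10 healthy RTD-1 libraries and 3 of arthritic rats given saline among them. All 8 arthritic members are among the 45 others. In the series, 24 genes had 0 reads in all 45 other libraries and at least 1 read in each of the 13 deeper ones, arthritic and healthy alike. Results are therefore also given from a fit with a term for deeper libraries, which the 3 saline libraries alone estimate, within their groups. On levels scaled to a common depth, that term was itself called in 1678 of 13062 genes, 778 higher and 900 lower in deeper libraries. The cause of these differences was not tested.

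Arthritic and healthy synovium differed in 51.5% of the genes tested at day 3. Of 13062 genes tested, 6723 passed, with 3144 higher in PIA (24.1%) and 3579 lower (27.4%). The test was limma and the threshold a Benjamini-Hochberg adjusted p under 0.05. Of these genes, 3385 (25.9% of those tested) changed at least 2-fold, 1513 up (11.6%) and 1872 down (14.3%). In 3775 genes (28.9%) the 8 arthritic and 5 healthy libraries did not overlap, 1846 with PIA above (14.1%) and 1929 with PIA below (14.8%). Levels were scaled so that each library had the same median gene, and with the deposited scaling the split was 2194 higher and 4002 lower. With the term for deeper libraries 4722 genes passed, 2299 higher and 2423 lower, and 3754 of the 6723 passed in the same direction, 2854 no longer passed and 115 passed in the opposite direction. In that fit 3243 genes changed at least 2-fold, and 2264 of the 3385 above were among them in the same direction, 1081 up and 1183 down. The median standard error of the day 3 difference was 0.31 log2 with the term and 0.22 without it.

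Large changes went both ways. Differences of at least 8-fold and under 16-fold, in genes that passed, were seen in 153 genes upward, and 48 genes were at least 16-fold higher in PIA. Downward, 207 genes changed more than 8-fold and up to 16-fold, and 123 changed by more than 16-fold. Over all genes tested the median difference was -0.06 log2 and the median size 0.52 log2, against a median standard error of 0.22. The difference also reached genes of every level. In the lowest of 4 equal classes of genes by level 1590 of 3266 passed, 623 higher and 967 lower, and in the highest class 1906 of 3266, 968 higher and 938 lower. The median standard error was 0.14 log2 in the highest class and 0.48 in the lowest. Called changes of at least 2-fold were uneven in the lowest class, with 568 up and 909 down. From the next class to the highest they were 363 and 401, 320 and 279, and 262 and 283. The median difference was -0.31 log2 in the lowest class and -0.002 in the highest.

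**Figure D1:**
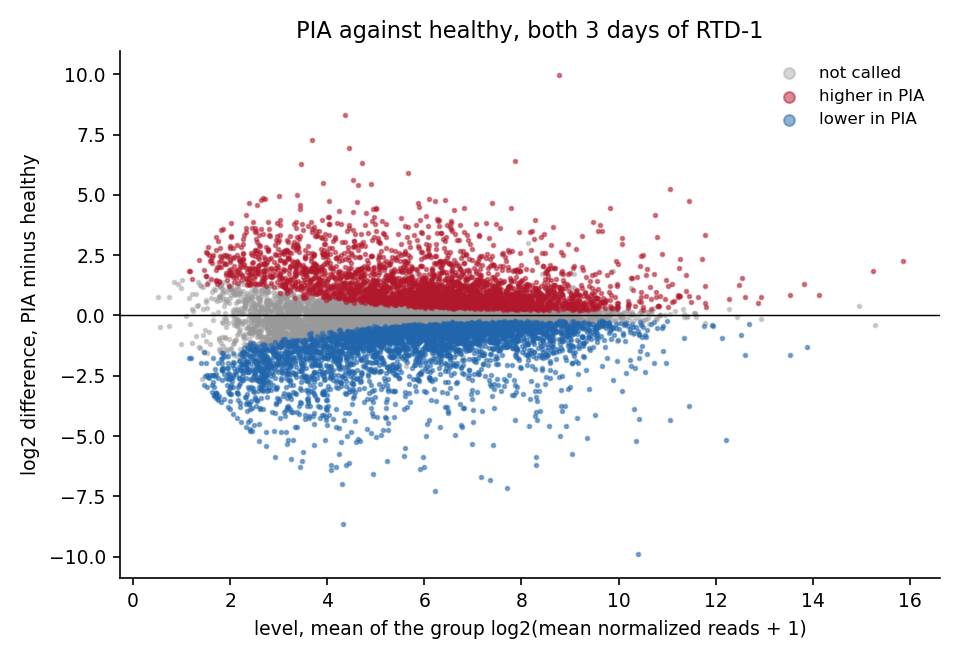
Log2 difference of PIA minus healthy (vertical axis) for each of 13062 genes against its level, the mean of the group log2(mean normalized reads + 1) (horizontal axis), both groups after 3 days of RTD-1. The 3144 genes called higher (red) and 3579 called lower (blue) span all levels, and the band of genes not called (grey) narrows toward abundant genes.

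The largest rise among genes with separated groups was that of ENSRNOG00000002548. Its normalized reads, here reads put on a common depth and centred, were 14474, 11901, 17656, 10877, 9105, 16186, 10761 and 13050 in arthritic replicates 1 to 8. In healthy replicates 1 to 5 they were 6.12, 5.05, 12.0, 19.99 and 26.1. Every arthritic library thus stood far above every healthy one, and this gene alone took between 0.391% and 0.748% of the arthritic reads. The means were 13001 ± 2926 (SD, n = 8) and 13.8 ± 9.04 (SD, n = 5), a log2 difference of 9.98 (SE 0.515, limma adjusted p = 7.53e-21). With the term for deeper libraries it was 9.45 (limma adjusted p = 3.17e-14). Naive rats stood near the healthy members at 16.5 ± 15.5 (SD, n = 4), and untreated PIA rats near the arthritic ones at 12881 ± 7556 (SD, n = 4).

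ENSRNOG00000002843 was near 0 in healthy synovium and present in each arthritic library. Arthritic replicates 1 to 8 held 330.2, 247.1, 173.9, 885.8, 200.8, 471.0, 278.2 and 550.6 normalized reads. Of the healthy libraries only replicate 1 had any, with 1 read, and the other 4 had 0. Replicate 4 was the highest arthritic library and replicate 3 the lowest. The fitted difference was 8.33 log2 (SE 0.752, limma adjusted p = 5.13e-13), and 8.90 with the term for deeper libraries (limma adjusted p = 1.17e-08). Summed over the libraries of a group, 2486 reads against 1 gave a 4534-fold higher share of reads in PIA, with a 95% exact counting interval of 813 to 179146. That interval covers counting error only, as reads of amplified libraries are not independent molecules. Rats given saline for 3 days ranged from 19.6 to 499.3 normalized reads, with a median of 205.9 (n = 8), so their lower libraries lay below all 8 RTD-1 libraries of that day.

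The largest fall was that of ENSRNOG00000013552, one of the most abundant transcripts of healthy synovium. Healthy replicates 1 to 5 held 25897, 50731, 35843, 25010 and 27142 normalized reads, between 1.15% and 2.26% of all reads in genes. Arthritic replicates 1 to 8 held 54.5, 18.3, 213.8, 18.6, 79.0, 20.9, 23.3 and 7.51. Replicate 3 stood highest among the arthritic libraries and was still far below every healthy library. The means were 54.5 ± 68.5 (SD, n = 8) and 32925 ± 10852 (SD, n = 5), a log2 difference of -9.88 (SE 1.15, limma adjusted p = 7.02e-10), and -10.95 with the term for deeper libraries (limma adjusted p = 1.34e-06). After 5 days of RTD-1 the arthritic libraries ranged from 4.54 to 8552 normalized reads, with a median of 163.9 (n = 8). Day 3 minus day 5, the disease difference changed by -2.93 log2 (SE 1.63), which did not pass (limma adjusted p = 0.666).

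ENSRNOG00000011292, the second gene named for its fall, was read in deeper libraries only, arthritic and healthy. It had 0 reads in all 8 arthritic members and 333.5, 402.5, 374.5, 415.7 and 455.5 normalized reads in healthy replicates 1 to 5. The fitted difference was -8.63 log2 (SE 1.12, limma adjusted p = 5.77e-09). Against a floor of 3 reads over the arthritic group, its share of reads was at least 880-fold lower in PIA. Naive rats, which are also healthy, had 0 in all 4 libraries, as did untreated PIA. The only arthritic libraries with reads were the 3 deeper saline ones, at 605.0, 424.5 and 366.5 normalized reads. The difference was -8.57 log2 at an equal 464693 reads per library. With the term for deeper libraries it was 0.19 log2 (SE 0.397) and did not pass (limma adjusted p = 0.753). Genes absent from one group were counted in both directions, on unequal terms. One count asks for a read in all 5 healthy libraries, with 26776800 reads in genes together. The other asks for a read in all 8 arthritic libraries, with 14682500. In 185 genes, or 1.10% of the 16879 in the table, all arthritic members had 0 reads and all healthy members at least 1. They were mostly low, with a median of 28 reads summed over the 5 healthy libraries, and 30 of them were among the genes tested. Of the 185, 51 were also read in all 3 deeper saline libraries, while 58 had 0 reads in all 4 naive libraries. In the other direction there were 6 genes (0.0355%), all 6 among those tested. At an equal 464693 reads per library the numbers were 54 and 22, still with reads asked for in all 5 or all 8 libraries.

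**Figure D2:**
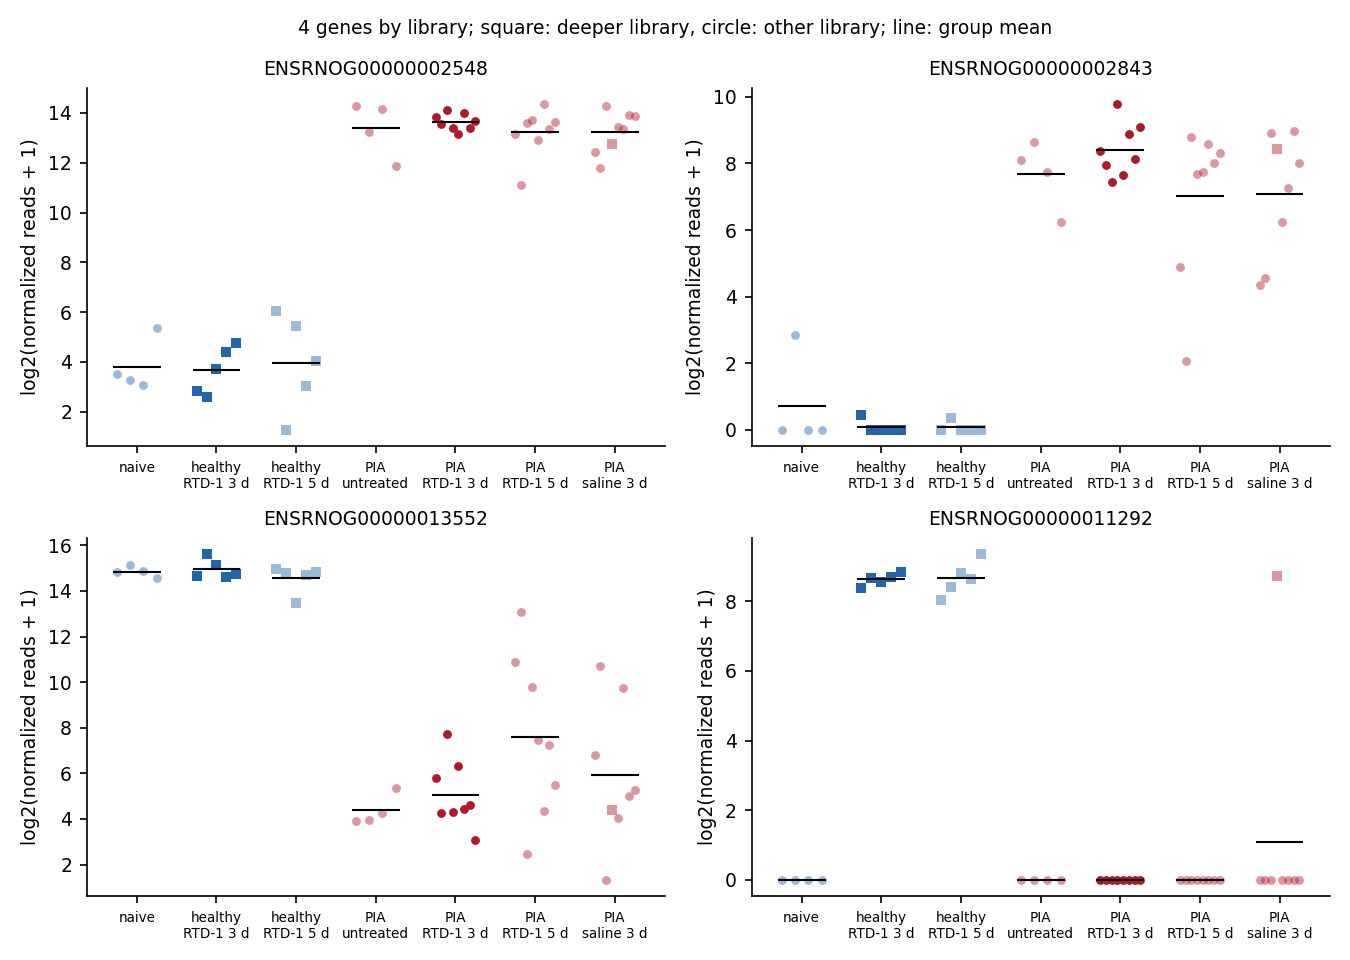
Log2(normalized reads + 1) of 4 genes in each library (vertical axis) of the groups shown (horizontal axis), red for arthritic and blue for non-arthritic rats, with the 2 groups compared in full colour. Squares are deeper libraries, circles the others, and lines group means. ENSRNOG00000002548 and ENSRNOG00000013552 split by disease in the groups shown, while ENSRNOG00000011292 is above 0 in squares only. ENSRNOG00000002843 separates the 2 groups compared. Across the other groups it overlaps, with naive replicate 2 (6.12 normalized reads) above arthritic replicate 2 after 5 days of RTD-1 (3.20).

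Arthritic libraries were more concentrated on few transcripts. The most abundant gene of a library took between 4.06% and 6.86% of reads in PIA and between 1.67% and 3.53% in healthy synovium. The 10 most abundant took 16.04% ± 1.44 (SD, n = 8) and 11.8% ± 1.30 (SD, n = 5). At an equal 464693 reads, 12542 ± 261 genes (SD, n = 8) were detected in PIA and 13163 ± 190 (SD, n = 5) in healthy tissue. None of these 3 measures overlapped between the groups, and each had a two-sided exact permutation p of 0.000777, the smallest that 8 against 5 allows, also after adjustment over the 3. Depth class goes with disease here, and its part in these differences was not tested. Naive libraries, which are not of the deeper class, had 11.3% ± 0.865 of reads in the top 10 genes and 13603 ± 496 genes detected at equal depth (SD, n = 4), outside the range of the arthritic members in both. Untreated PIA libraries, also not of the deeper class, ran from 10.3% to 19.3% for the top 10 genes and from 12395 to 12951 genes detected, so they overlapped the healthy members in both measures.

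Arthritic libraries also varied more among themselves. The median SD of a gene over libraries was 0.39 log2 in PIA and 0.24 in healthy synovium, with the larger value in PIA for 80.4% of genes. At equal depth the medians were 0.52 and 0.44. These are descriptions with no test, and the arthritic libraries were shallower. Using arthritic replicates 1 to 4 only, 5850 genes passed, and with replicates 5 to 8 only 6012. Without the shallowest arthritic libraries, replicates 6 and 8, 6234 passed.

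Next, the day 3 difference was read over genes chosen in rats that were not members. Untreated PIA against naive, which shares no library with the day 3 comparison, gave 1365 genes at least 2-fold higher in PIA (10.5% of those tested) and 1651 at least 2-fold lower (12.6%). Of the 1365 raised genes, 1175 (86.1%) were called higher and 0 lower in PIA under RTD-1 at day 3, against 24.1% called higher among all genes. Of the 1651 lowered genes, 1422 (86.1%) were called lower and 1 higher, against 27.4% called lower among all genes. The median day 3 difference was 1.46 log2 over the raised genes and -1.65 over the lowered ones, beside -0.06 over all genes. With the term for deeper libraries these medians were 1.62 and -1.74, and 79.4% and 69.7% were called in their direction.

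These gene groups held a large part of the RNA. Raised genes took 26.4% ± 1.99 of reads in genes in arthritic members (SD, n = 8), from 23.1% in replicate 5 to 29.4% in replicate 6. They took 7.86% ± 0.998 in healthy members (SD, n = 5), at most 9.08%. Lowered genes took 5.13% ± 1.01 in PIA (SD, n = 8), from 4.12% in replicate 8 to 7.12% in replicate 5. In healthy members they took 21.1% ± 1.14 (SD, n = 5), at least 20.2%. The groups were apart in both measures, and replicate 5 was the arthritic library nearest the healthy ones in both. Untreated PIA, which helped to choose these genes, stood at 27.1% ± 3.88 and 4.67% ± 0.774 (SD, n = 4). The healthy members' values lay close to those of naive rats, at 7.71% ± 1.14 and 22.1% ± 1.20 (SD, n = 4).

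**Figure D3:**
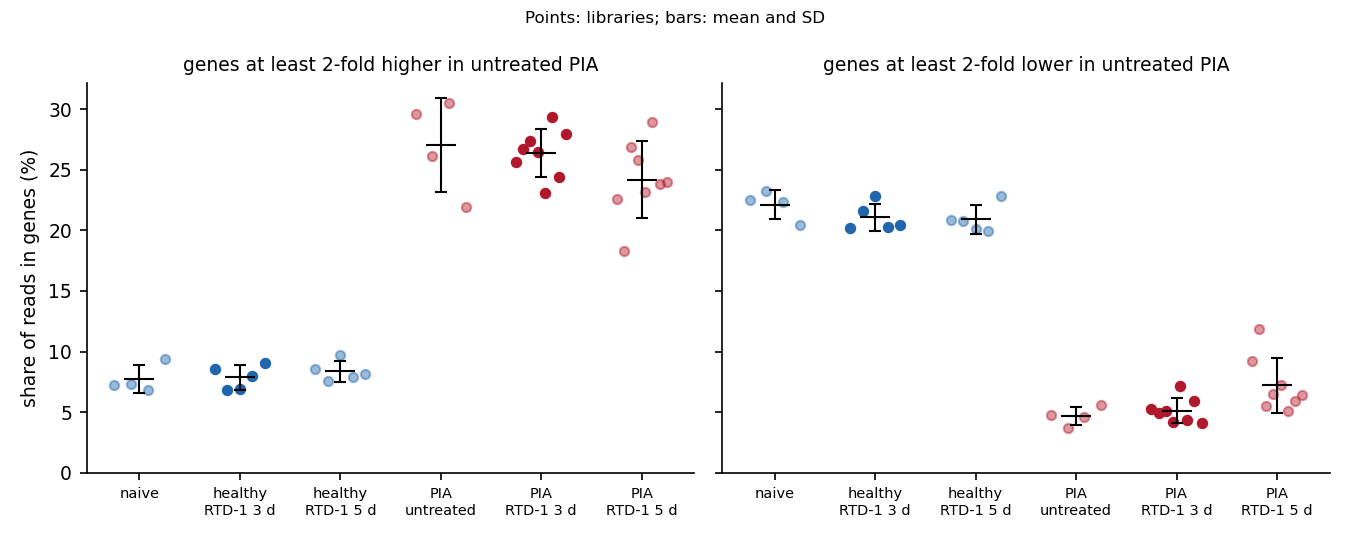
Share of reads in genes (vertical axes, percent) taken by the 1365 genes raised (left) and the 1651 genes lowered (right) in untreated PIA against naive, by library and group, with mean and SD. Arthritic members after 3 days of RTD-1 lie between 23.1% and 29.4% on the left and between 4.12% and 7.12% on the right, apart from the healthy members in both.

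The size of the day 3 difference followed the size of the untreated one. Genes raised 2 to 4-fold in untreated PIA (n = 815) had a median day 3 difference of 1.14 log2, those raised 4 to 8-fold (n = 347) 1.98, 8 to 16-fold (n = 149) 2.84 and over 16-fold (n = 54) 3.84. All 54 in the top class were called higher at day 3. Among lowered genes the medians were -1.17 (n = 874), -2.15 (n = 474), -3.14 (n = 205) and -4.71 (n = 98) in the same order, and all 98 in the top class were called lower. In 17 lowered genes and 4 raised ones 1 group had 0 reads throughout, and with these at their bounds the median of the top lowered class was -4.79. The untreated values chose the classes, so only the day 3 and day 5 values are set side by side.

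At day 5, in other libraries, the medians were nearer 0, at 1.22 log2 over the raised genes and -1.20 over the lowered ones. Of the raised genes 77.3% were called higher at day 5, against 20.8% of all genes, and of the lowered genes 66.2% were called lower, against 19.7%. Of the raised genes 76.9% had a larger difference in size at day 3 than at day 5, as did 84.1% of the lowered genes and 64.0% of all genes. The class lowered over 16-fold stood at -4.71 on day 3 and -3.37 on day 5. The arthritic day 5 libraries were uneven. Lowered genes took 9.18% and 11.9% of reads in replicates 1 and 2, and 5.12% to 7.26% in the others. Raised genes took 22.6% and 18.3% in replicates 1 and 2, and 23.2% to 28.9% in the others. How far these replicates set the day 5 medians was not tested. Gene by gene, the difference between the days was not called for any of 13062 genes (limma, lowest adjusted p = 0.359; 0% called), and 1018 genes (7.79%) had an unadjusted p under 0.05. limma voom on the recovered reads also called 0, and limma with array weights called 20, 10 in each direction. The median standard error of a gene's difference between days was 0.31 log2, and on simulated data this test recovered 32% of 2-fold and 88% of 4-fold differences.

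**Figure D4:**
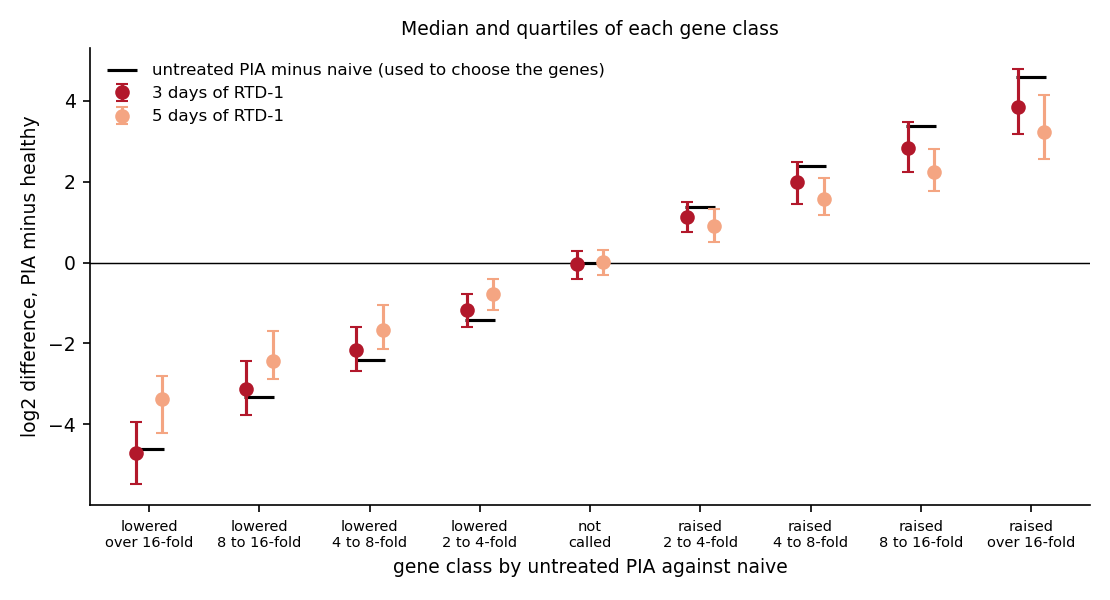
Median log2 difference of PIA minus healthy with quartiles (vertical axis) in gene classes set by untreated PIA against naive (horizontal axis), after 3 days (red) and 5 days (light red) of RTD-1, with the untreated median as a black bar. The medians grow with the class at both days, from 1.14 to 3.84 for raised genes at day 3, and those of day 5 lie nearer 0.

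Whether the disease difference under RTD-1 at day 3 departed from that of untreated rats was tested for each gene, in a comparison that changes drug and duration at once. It was called for 187 genes, 1.43% of those tested, 79 with a higher (0.605%) and 108 with a lower value (0.827%) at day 3 (limma adjusted p under 0.05). By the sign of the 2 estimates, 31 had a positive value in both and a larger one at day 3, with medians of 3.24 log2 at day 3 and 0.35 untreated. All 31 were called at day 3 and 3 were called untreated. In 12 both estimates were negative and day 3 was further from 0 (medians -2.42 and -0.14), with 12 called at day 3 and 0 untreated. Both were positive and day 3 smaller in 20, of which 11 were called at day 3 and 20 untreated, and both negative and day 3 nearer 0 in 5 (2 and 5 called). The estimate was negative at day 3 and positive untreated in 76 genes, of which 55 were called at day 3 and 30 untreated. It was positive at day 3 and negative untreated in 43, of which 33 and 16 were called. Over all 13062 genes tested, 6723 (51.5%) were called at day 3, with 8 against 5 libraries. Untreated, 5134 were called, with 4 against 4. The same libraries chose the 187 genes, so the counts called within these classes describe them and test nothing.

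Among the 187 genes the departures lay mostly on the healthy side. In 176 of the 187 genes healthy RTD-1 rats differed from naive by more than arthritic RTD-1 rats differed from untreated PIA. The same count was not made over all genes tested, so whether 176 is unusual cannot be said. Healthy RTD-1 against naive was called in 164 of the 187 (5.05% of all genes) and arthritic RTD-1 against untreated PIA in 1 (0.0153% of all genes). The comparisons share their libraries with the one that chose the 187, so these counts describe them and test nothing. Healthy members are deeper and naive rats are not. In 168 of the 187 genes the term for deeper libraries, estimated in saline rats, had the sign of healthy RTD-1 minus naive, 89.8% beside 68.1% of all genes tested. The number of departures moved with the processing, to 64 at equal depth, 621 with the term for deeper libraries (156 higher and 465 lower) and 1325 with the deposited scaling (41 higher and 1284 lower). It was 117 without naive replicate 2, and 119 and 89 without untreated PIA replicates 2 and 4. RTD-1, injection and depth class cannot be told apart between healthy RTD-1 and naive rats.

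**Figure D5:**
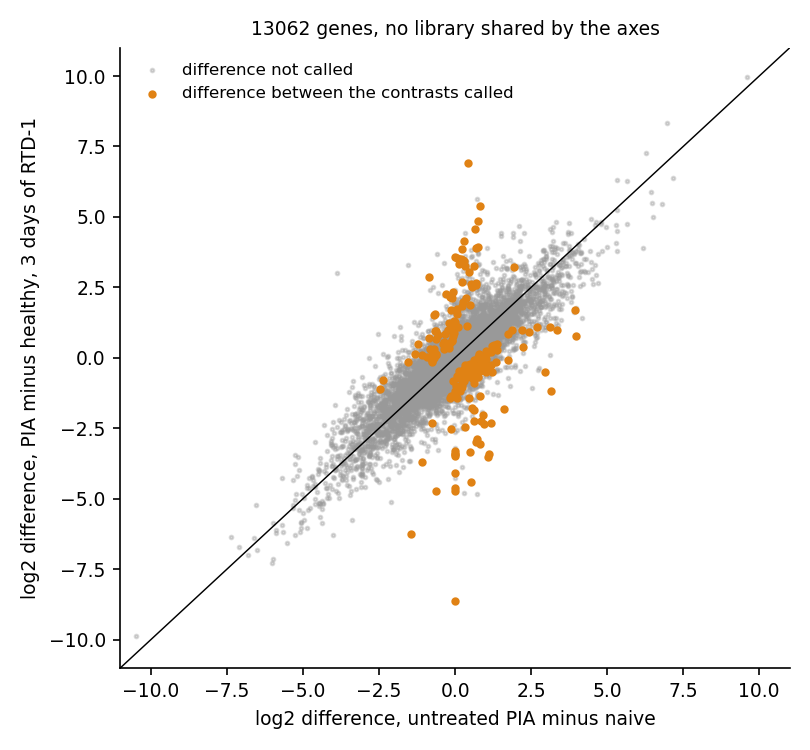
Log2 difference of PIA minus healthy after 3 days of RTD-1 (vertical axis) against that of untreated PIA minus naive (horizontal axis) for 13062 genes; the line marks equal differences. The 187 genes whose difference between the comparisons was called (orange) lie off the line, 79 above it and 108 below.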

How the data were processed

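The deposited table holds log2 values, 1 per gene and library. Read from those values, each is a whole read number multiplied by a factor of its library, with 0.9 standing for 0 reads. Dividing by that factor gave whole numbers, to within 0.001 of their size, for 100% of values above the one that stands for 0. The submitters' processing notes list HISAT and DESeq, without versions. For build, annotation and counter: not given in the sources used here. Libraries were stranded total RNA, read from 1 end over 75 nt, per the labels' protocols. Of 16880 rows, 1 without an identifier was left out (0.00215% to 0.0137% of member reads).

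Reads were scaled to the median library's factor of 5.75 megareads, a gene was tested if 4 or more libraries held 10 or more normalized reads, and each library was scaled to the same median gene. One linear model with the means of all 10 groups was fitted to log2(normalized reads + 1) in limma 3.58.1 (R 4.3.3; trend and robust settings), two-sided, with Benjamini-Hochberg adjustment. Replicates are libraries; separate animals are not stated, so p-values measure the spread between libraries. All members of a group differed pairwise beyond sampling noise (lowest chi-square over its degrees of freedom 2.70). Named genes were the 2 per direction with the largest difference among called genes with separated groups and a mean of at least 50 normalized reads. The rule asked for symbols; with 0 of 13062 identifiers matched, 29 gene lists were not analysed here. Members and lists were chosen with earlier results of these data known. The day 3 test was tried on simulated data (12829 genes, 50 changed at each size and all others unchanged). It recovered 22% at 1.5-fold, 66% at 2-fold, 96% at 4-fold and 100% at 8-fold, with 11 false calls. In the simulation deeper libraries differed from others in read number alone. In the data 51.5% of genes were called at day 3, so these rates may not hold there. Figures used matplotlib 3.10.9.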

Additional observations from a re-analysis of the deposited data

Results flagged for a closer look

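The comparison of the day 3 difference with that of untreated rats called 187 genes. It changes drug and duration at once, and its healthy members are deeper libraries while its naive ones are not. The row without an identifier, left out of all tests, stood at 255.1 ± 55.9 normalized reads in healthy members (SD, n = 5), at least 158.6, while naive libraries reached at most 74.7 and arthritic members ranged from 52.3 to 137.7.

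Among 22 groups of values checked for a library far from the rest, 4 had one. Chance gives about 1 in 20, a rate that does not apply to ENSRNOG00000002843, where all other libraries tie at 0. ENSRNOG00000013552 stood at 213.8 normalized reads in arthritic replicate 3, with 79.0 in the next library. ENSRNOG00000002843 stood at 0.360 in healthy replicate 1, from 1 read, with 0 in the other 4. The 10 most abundant genes took 19.1% of reads in arthritic replicate 6, the shallowest library, with 16.6% in the next. At equal depth 12833 genes were detected in healthy replicate 2, with 13183 in the next.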

How the results depend on the processing

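The count of genes called at day 3 stayed between 4570 and 7631 over 17 alternatives, and between 6195 and 6691 with each of the 13 members left out in turn. These were other pseudocounts, filters, scalings, TMM factors, quantile normalization, array weights, voom, equal depth, a replicate block and subsets of libraries. The 2-fold count was 3275 to 3454 with 1 member left out, and 2050 with a filter of 50 normalized reads, where 9067 genes were tested. The test of day 3 against day 5 called 0 genes in every setting but array weights, which called 20, and 0 with each library left out. The difference from untreated rats called 1325 genes with the deposited scaling, 385 when other groups were left out, 597 with array weights, 64 at equal depth and 119 with arthritic replicates 1 to 4 only. It called 621 with the term for deeper libraries and 479 without the deeper saline libraries, both added after the data were seen, and 89 to 206 with 1 library left out. At equal depth 74.3% of raised genes were called higher and 68.5% of lowered genes lower, and with the term for deeper libraries 69.7% of the latter. The causes of these shifts were not tested.

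With a replicate block the counts were 6352 at day 3 (3207 at least 2-fold), 0 between days and 172 against untreated rats. Replicate numbers were not used as pairs in the main fit. Deviations of same-numbered members correlated between -0.04 and 0.11, and 5 such pairs are too few to exclude pairing. Of the genes named, ENSRNOG00000011292 turned direction with the term for deeper libraries (0.19 log2); the others passed in all 30 alternatives.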
